A study of Mus musculus with 4 samples.

Results

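The genes described here encode the T cell receptor complex and the kinases, adaptors, phosphatases and NFAT or NF-kB coupling proteins that act directly behind it. Of 39 genes listed for this machinery, 38 were measured, out of 18194 genes with a probe set of their own on the array. Lck, the kinase that starts the cascade, was not analysed here. The measured members had 86 probe sets, and the value of a gene is that of the probe set brightest on average over the 4 arrays.

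Total RNA came from splenic Treg cells of C57BL/6 mice, that is, regulatory T cells, a CD4 lineage defined by Foxp3 that keeps immune responses in check. There were 2 groups of 2 arrays, the arrays titled Foxo1/3-deficient and the arrays titled wild-type, and each title assigns an array to pair 1 or pair 2. The genotype field of the arrays titled Foxo1/3-deficient names Foxo1-deficient only. The sources used here do not give how the genes were deleted, by which Cre, or the number and age of the animals. They do not say whether arrays of one group are separate animals either.

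When a peptide engages the T cell receptor, Lck phosphorylates the tails of the CD3 and zeta chains, and Zap70 docks there and phosphorylates the adaptors LAT and SLP-76. The adaptors assemble phospholipase C, Vav and Ras activators, which open the calcium and NFAT, Ras and MAP kinase, and protein kinase C and NF-kB branches. Phosphatases, the kinase Csk and diacylglycerol kinases restrain the cascade, and Treg cells depend on receptor signals for their suppressive state.

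The Foxo1 signal went against the label. The brightest of 4 Foxo1 probe sets, the one shown here, is of a class that can match several transcripts (suffix _s_at). It read 6949 and 6697 on the labelled-deficient arrays, against 2383 and 1254 on the wild-type arrays. This was higher by 1.97 ± 0.30 on the log2 scale (SE; adjusted p = 0.0209 by limma), a call that was lost with all probe sets kept (0.0698) or with no intensity trend in the variance model (0.0795). Foxo3 read 1424 and 1308 there, against 1876 and 2635 (log2 -0.70 ± 0.24, limma adjusted p = 0.242, and 0.0115 with the pair number as a block). The sources used here do not say which part of either gene these probe sets cover, and every direction below is that of the arrays as labelled. Foxp3 read 6504 and 6056 on the labelled-deficient arrays, against 6540 and 6285 on the wild-type arrays. All 6 Treg markers were bright on every array, with signals from 2449 to 17387. Cd8a and Cd8b1, which define CD8 T cells, stayed between 143 and 444.

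The main finding for the signalling genes was a set of modest differences in both directions. Cd28, Txk and Dgka stood about 2-fold higher on the labelled-deficient arrays, and Cd247 and Prkcq stood 1.47-fold and 1.42-fold higher. Themis, Sit1, Zap70, Pag1, Nfatc2, Cd6 and Grb2 stood lower by 1.41-fold to 1.75-fold. Other probe sets of Cd247, Zap70 and Nfatc2 did not all share the direction. By limma on log2(signal + 17), with Benjamini-Hochberg adjustment over 12115 genes, 0 of 38 members passed an adjusted p of 0.05, where 2.6% of all genes passed. At an unadjusted p under 0.05 there were 4 higher and 7 lower members (28.9%, against 13% of all genes, 5.98% higher and 7.04% lower). With the pair number as a block, 5 members rose and 7 fell (31.6%, against 11.9% of all genes, 5.44% higher and 6.5% lower). That fit has 1 residual degree of freedom, so its p-values lean on a shared variance model that supplies 17.3 more. In RNA of a cell population, fewer cells that express a gene and less RNA per cell cannot be told apart.

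**Figure D1:**
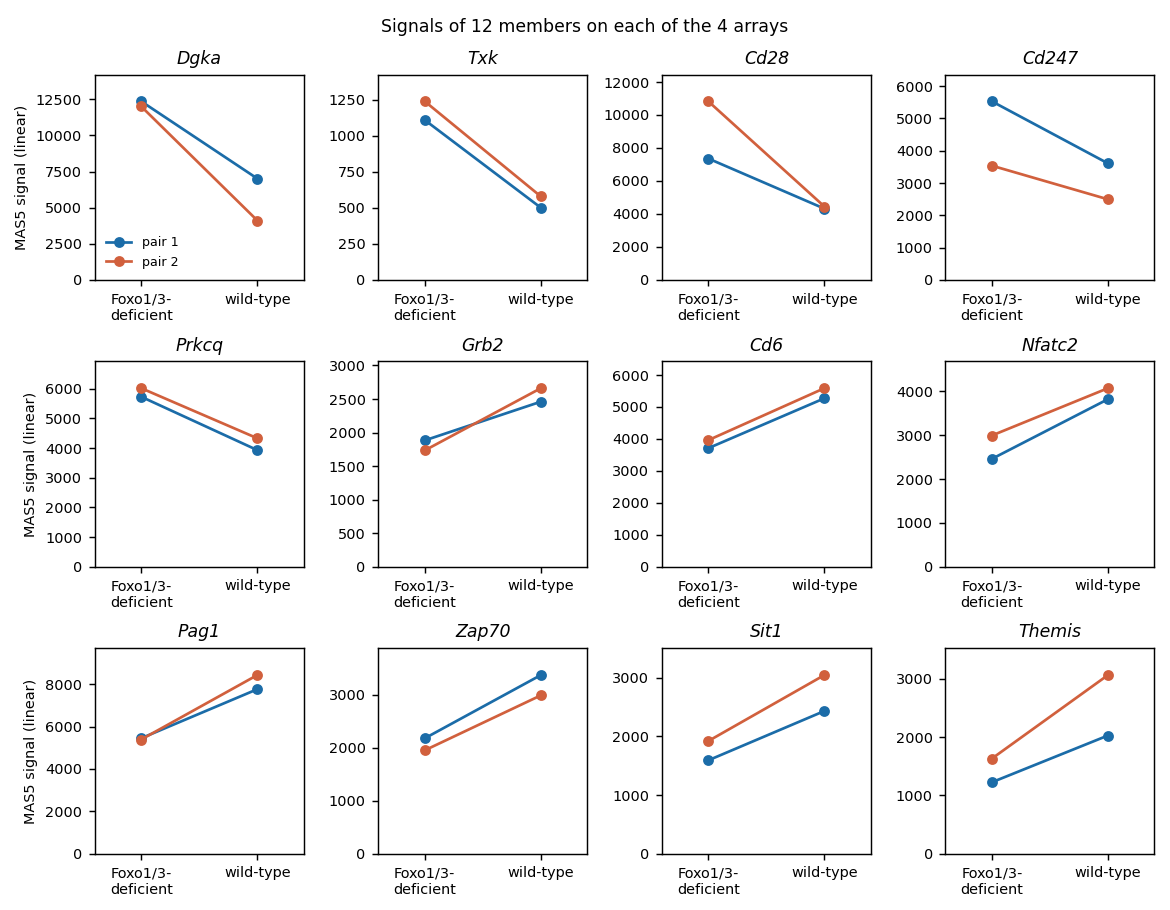
MAS5 signal (linear, axes from 0) of the 12 members called with the pair number as a block, on the Foxo1/3-deficient (left) and wild-type (right) array of each pair; a line joins the 2 arrays of a pair (pair 1 blue, pair 2 orange). Dgka, Txk, Cd28, Cd247 and Prkcq slope down to the right and the other 7 slope up, in both pairs.

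Dgka, a diacylglycerol kinase that removes the second messenger for Ras activation, had the largest difference of the members on the log2(signal + 17) scale. Its signals were 12366 and 12013 on the labelled-deficient arrays, against 7017 and 4115 on the wild-type arrays. The groups did not overlap, and pair 2 showed the wider gap (2.92-fold, against 1.76-fold in pair 1). The log2 difference was 1.18 ± 0.26 (SE, n = 2 each; limma adjusted p = 0.0636, and 0.000125 with the block). Without wild-type replicate 1 it was 1.56 and passed (adjusted p = 0.00108), and without wild-type replicate 2 it was 0.80 (0.0905).

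Txk, a kinase of the Tec family expressed in T cells, read 1108 and 1238 on the labelled-deficient arrays, against 500.5 and 578 on the wild-type arrays. Both pairs gave nearly the same ratio, 2.21-fold and 2.14-fold. The log2 difference was 1.10 ± 0.24 (limma adjusted p = 0.0641, and 0.000499 with the block), and Txk was the only member at least 2-fold higher within both pairs, against 2.1% of all genes. No member was 2-fold lower within both, against 2.33%. At 1.5-fold within both pairs there were 3 higher members (Cd28, Txk and Dgka), against 5.27% of all genes, and 3 lower (Zap70, Themis and Sit1), against 5.77%.

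Cd28, the receptor for the costimulatory ligands CD80 and CD86, read 7360 and 10829 on the labelled-deficient arrays, against 4322 and 4449 on the wild-type arrays. Its second probe set showed the same separation, with 7021 and 5902 against 3566 and 3021. On the brighter probe set the log2 difference was 1.02 ± 0.22 (limma adjusted p = 0.0636, and 0.000252 with the block). It passed on the mean of both probe sets (log2 0.996, adjusted p = 0.0339), after quantile normalization (1.07, 0.0415) and without labelled-deficient replicate 1 (1.30, 0.0443), and stood at 0.74 without labelled-deficient replicate 2 (0.311).

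Promoter sequence is shown for Txk and Dgka, the most separated members with an entry in the RefSeq promoter table, and for Nfatc2, a member called with the block that has the forkhead motif in a window of that table. The motif is GTAAACA, which FoxO proteins are known to bind, or its reverse complement TGTTTAC. Each stretch is the 250 bases before an annotated start on build GRCm38.p6, 5′ to 3′ on the gene's strand, and capitals mark the motif. For Txk and Dgka the most upstream start is shown (chr5:72752778-72753027 and chr10:128745085-128745334, both minus strand), and for Nfatc2 the start with the motif (chr2:168601658-168601907, minus strand), where it begins 185 bases upstream.
Txk: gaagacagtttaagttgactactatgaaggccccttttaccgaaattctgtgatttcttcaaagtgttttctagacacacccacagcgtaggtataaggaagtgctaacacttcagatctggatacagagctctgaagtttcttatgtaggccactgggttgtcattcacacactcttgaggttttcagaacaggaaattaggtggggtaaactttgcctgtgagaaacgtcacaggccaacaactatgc
Dgka: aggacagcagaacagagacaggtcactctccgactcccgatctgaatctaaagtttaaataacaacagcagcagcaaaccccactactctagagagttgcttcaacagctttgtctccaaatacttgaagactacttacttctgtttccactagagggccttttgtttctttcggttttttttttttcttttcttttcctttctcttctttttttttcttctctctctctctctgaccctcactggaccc
Nfatc2: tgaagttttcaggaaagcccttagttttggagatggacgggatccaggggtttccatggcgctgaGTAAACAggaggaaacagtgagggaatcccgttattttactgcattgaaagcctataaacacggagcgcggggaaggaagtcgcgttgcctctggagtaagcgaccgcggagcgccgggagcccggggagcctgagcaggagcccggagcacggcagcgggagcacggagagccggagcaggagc
Of 39 listed genes 32 had an entry, with 48 windows between them, and 3 windows (Grap2, Nfatc2 and Nfatc3) held the motif, against 3.17% of 32851 windows in the table. A match describes the letters in this window and is not a binding site.

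Among the receptor chains, the groups overlapped for all 4 genes. Within both pairs Cd247 stood higher, Cd3e and Cd3g stood lower, and Cd3d changed sign between the pairs. Cd247 encodes the zeta chain, whose tail carries the largest share of the receptor's phosphorylation motifs. It read 5529 and 3538 on the labelled-deficient arrays, against 3608 and 2496 on the wild-type arrays. The groups overlapped because pair 1 was brighter than pair 2, but the ratio was 1.53 in pair 1 and 1.42 in pair 2. The log2 difference of 0.56 ± 0.28 did not pass without the block (limma adjusted p = 0.500) and rose with it (0.0204). The 3 other Cd247 probe sets were dim, between 50.3 and 319, and stood at log2 -0.16, 0.11 and 0.40.

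Cd3d, Cd3e and Cd3g encode the delta, epsilon and gamma chains that carry the receptor to the surface. Cd3d read 8884 and 6974 on the labelled-deficient arrays, against 9451 and 6650 on the wild-type arrays. Cd3e read 3371 and 1858, against 3759 and 2214, and Cd3g 7767 and 10579, against 8188 and 12552. Differences were log2 -0.010 ± 0.23, -0.20 ± 0.35 and -0.16 ± 0.25 (limma adjusted p between 0.907 and 0.996), and all 3 changed sign when single arrays were left out. Of 17 probe sets that the annotation assigns to receptor alpha, beta, gamma or delta chain genes, 15 passed the filter on dim probe sets and none passed the test. The brightest, annotated to the variable segment Trbv1 and of a class that can bind related transcripts (suffix _x_at), read 21993 and 23608 on the labelled-deficient arrays. On the wild-type arrays it read 23681 and 19492 (log2 0.085). Bright probe sets annotated to Trav9d-3 stood at -0.20, -0.17 and -0.20. Trgv1 had the largest difference, at 274 and 492 against 593 and 1423 (log2 -1.28, limma adjusted p = 0.309 over all probe sets).

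Of the coreceptors and costimulatory receptors besides Cd28, Cd6 was lower. Cd6, a scavenger receptor family protein that binds CD166 and tunes receptor signals, read 3711 and 3962 on the labelled-deficient arrays, against 5272 and 5588 on the wild-type arrays. The groups were apart, with ratios of 0.704 and 0.709 in the pairs, and Cd6 fell with the block (log2 -0.50 ± 0.18; limma adjusted p = 0.270 without and 0.0385 with the block). Its relative Cd5, which dampens receptor signals, read 13000 and 12638, against 13177 and 11567 (log2 0.054 ± 0.16). Cd2, the adhesion receptor for CD48, was at log2 -0.081 ± 0.18. Cd4 itself read 3081 and 1456, against 3028 and 1994, with no separation (log2 -0.21 ± 0.37; limma adjusted p = 0.925).

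**Figure D2:**
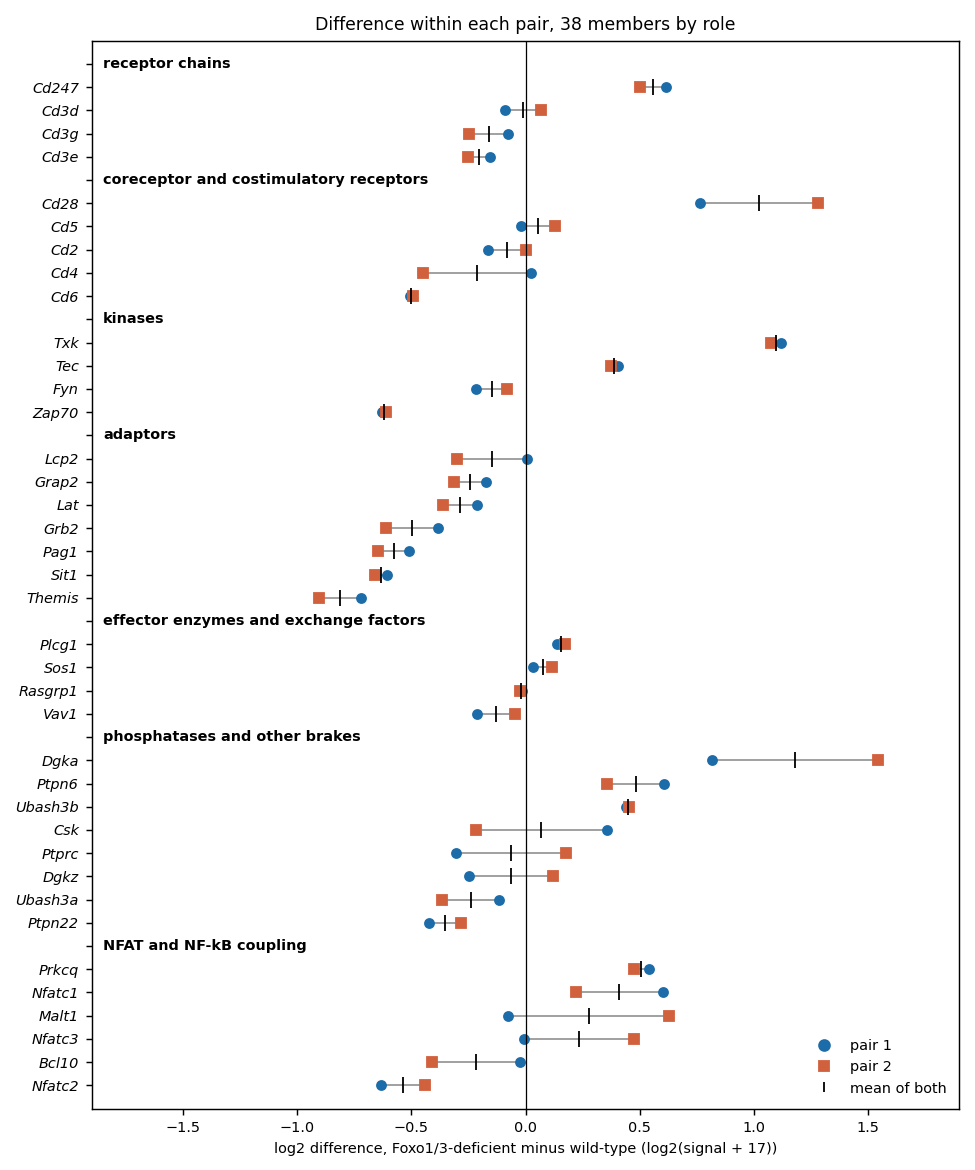
Log2 difference of Foxo1/3-deficient minus wild-type within pair 1 (blue circle) and pair 2 (orange square) for the 38 members grouped by role, on the log2(signal + 17) scale; a black tick is the mean of both. All 7 adaptors have a mean below 0, and Dgka, Txk and Cd28 lie farthest to the right.

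The kinases split. Zap70, which binds the phosphorylated receptor tails, read 2177 and 1950 on the labelled-deficient arrays, against 3370 and 2988 on the wild-type arrays. Both pairs were alike, at ratios of 0.646 and 0.653, and Zap70 fell with the block (log2 -0.62 ± 0.20; limma adjusted p = 0.210 without and 0.0107 with the block). A second bright probe set of Zap70, of the class that can bind related transcripts (suffix _x_at), read 2305 and 2087 against 2043 and 1757, the opposite direction (log2 0.21), and the remaining one stood at -0.047. The lower Zap70 value was thus seen on 1 of 3 probe sets.

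Tec, the founding member of the kinase family of Txk, read 912 and 907 on the labelled-deficient arrays, against 685 and 696 on the wild-type arrays. The groups did not overlap, at ratios of 1.33 and 1.30, but the log2 difference of 0.39 ± 0.23 did not pass either fit (adjusted p = 0.602, and 0.242 with the block). Fyn, the Src family kinase related to Lck, stood at log2 -0.15 ± 0.17, and at 0.091 on its other probe set.

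All 7 adaptors in the member list had a log2 difference below 0, with a median of -0.50, against -0.0028 over all genes tested. In 6 of 7, all except Lcp2, the labelled-deficient arrays lay below both wild-type arrays, as did 21.1% of all genes. With the block 4 of 7 fell, where 6.5% of all genes fell. The direction was not shared by a list of 25 other adaptors, kinases and brakes of the pathway. That list had a median of -0.011, with 11 genes above 0 and 14 below, and its adaptor Trat1 stood at 2.78.

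Themis, an adaptor that recruits the phosphatase Shp1 and is needed for thymocyte selection, had the lowest log2 difference of the members. It read 1226 and 1632 on the labelled-deficient arrays, against 2029 and 3067 on the wild-type arrays (log2 -0.81 ± 0.27; limma adjusted p = 0.226, and 0.00167 with the block). A dimmer probe set read 199 and 219 against 451 and 315 (log2 -0.81), and the remaining 2 were at -0.18 and -0.23. All 4 probe sets of Themis were thus below 0, by unequal amounts.

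Sit1, a transmembrane adaptor that recruits Shp2 and inhibits receptor signals, read 1592 and 1920 on the labelled-deficient arrays, against 2432 and 3045 on the wild-type arrays (log2 -0.63 ± 0.23; limma adjusted p = 0.257, and 0.00999 with the block). Pag1, the membrane adaptor that holds Csk next to Src kinases, read 5451 and 5392, against 7767 and 8436 (log2 -0.58 ± 0.17; 0.166, and 0.0179 with the block). All 3 other Pag1 probe sets were also lower, by log2 -0.52, -0.67 and -1.37, though they were dim. All 4 probe sets of Pag1 were thus below 0.

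Grb2, which links receptors to the Ras exchange factor Sos1, read 1883 and 1734 on the labelled-deficient arrays, against 2460 and 2661 on the wild-type arrays (log2 -0.50 ± 0.20; limma adjusted p = 0.348, and 0.0493 with the block). Its other probe set was at -0.038. Lat, the scaffold phosphorylated by Zap70, read 6856 and 5816 against 7939 and 7474 (log2 -0.29 ± 0.18). Grap2, which bridges Lat and SLP-76, stood at -0.24 ± 0.29, and at 0.18 on its dimmer other probe set. Lcp2, which encodes SLP-76, was at -0.15 ± 0.27, with pair 1 at 0.0055 and pair 2 at -0.30.

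The effector enzymes and exchange factors differed least. Plcg1, the phospholipase that releases the calcium and diacylglycerol messengers, read 5171 and 4819 on the labelled-deficient arrays, against 4703 and 4277 on the wild-type arrays (log2 0.15 ± 0.18). Rasgrp1, the diacylglycerol-dependent Ras activator, read 9696 and 8544, against 9810 and 8680 (log2 -0.020 ± 0.18). Vav1, which activates Rac, and Sos1 stood at -0.13 ± 0.25 and 0.075 ± 0.23. Adjusted p for these 4 genes lay between 0.855 and 0.991 (limma), and between 0.651 and 0.971 with the block.

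Among the brakes other than Dgka, differences ran in both directions and 0 of 7 passed either fit (limma; 0 at an unadjusted p under 0.05 without the block). Ptpn6, the phosphatase Shp1, read 5899 and 4039 on the labelled-deficient arrays, against 3871 and 3146 on the wild-type arrays, and lay just outside the threshold with the block (log2 0.48 ± 0.24; limma adjusted p = 0.491, and 0.0502 with the block). Its second probe set read 2701 and 2498 against 1966 and 2120. Ubash3b, the phosphatase Sts-1 that acts on Zap70, read 1724 and 1859 against 1267 and 1353 (log2 0.45 ± 0.21; adjusted p = 0.457, and 0.0957 with the block). All 3 Ubash3b probe sets were higher on the labelled-deficient arrays, the other 2 by log2 0.49 and 0.64. Its paralogue Ubash3a was at -0.24 ± 0.33, and at -0.51 on its other probe set.

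Ptpn22, a phosphatase that dephosphorylates Src kinases and Zap70, read 4983 and 4400 on the labelled-deficient arrays, against 6693 and 5351 on the wild-type arrays (log2 -0.35 ± 0.20; limma adjusted p = 0.568, and 0.178 with the block). Ptprc, the phosphatase CD45, stood at -0.065 ± 0.18, Dgkz, the second diacylglycerol kinase, at -0.065 ± 0.21, and Csk at 0.070 ± 0.24. Each of these 3 had opposite signs in the pairs on the probe set read. A second Ptprc probe set was higher in both pairs, at 3541 and 5081 against 3332 and 3496 (log2 0.31). Dgkz read 11704 and 17074 against 13909 and 15723, beside the separated values of Dgka.

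In the NFAT and NF-kB coupling group, Prkcq rose and Nfatc2 fell with the block. Prkcq encodes protein kinase C theta, which carries the receptor signal to the Bcl10 and Malt1 complex. It read 5730 and 6018 on the labelled-deficient arrays, against 3932 and 4331 on the wild-type arrays, with ratios of 1.46 and 1.39 in the pairs (log2 0.51 ± 0.18; limma adjusted p = 0.261, and 0.0358 with the block). Downstream of it, Malt1 was at 0.28 ± 0.25 and Bcl10 at -0.22 ± 0.23, and neither had groups apart on the probe set read. A second Malt1 probe set had groups apart, at 1279 and 2516 against 1015 and 1144 (log2 0.73). The remaining, dimmer one stood at 0.40.

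Nfatc2, a calcium-activated transcription factor that pairs with Foxp3 on DNA, read 2459 and 2992 on the labelled-deficient arrays, against 3820 and 4071 on the wild-type arrays (log2 -0.54 ± 0.20; limma adjusted p = 0.291, and 0.0270 with the block). On the mean of all its probe sets the difference was 0.0072. A much dimmer Nfatc2 probe set ran the other way, at 139 and 150 against 83.0 and 67.1 (log2 0.82). Nfatc1 depended on the probe set. Its brightest read 3467 and 5078 against 2280 and 4356 (log2 0.41 ± 0.33), whereas the next read 3074 and 2764 against 3835 and 3678 (-0.36), and its 3 others lay at -0.24, -0.35 and -0.66. Nfatc3 stood at 0.23 ± 0.20, and at 0.53 on its other probe set.

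**Figure D3:**
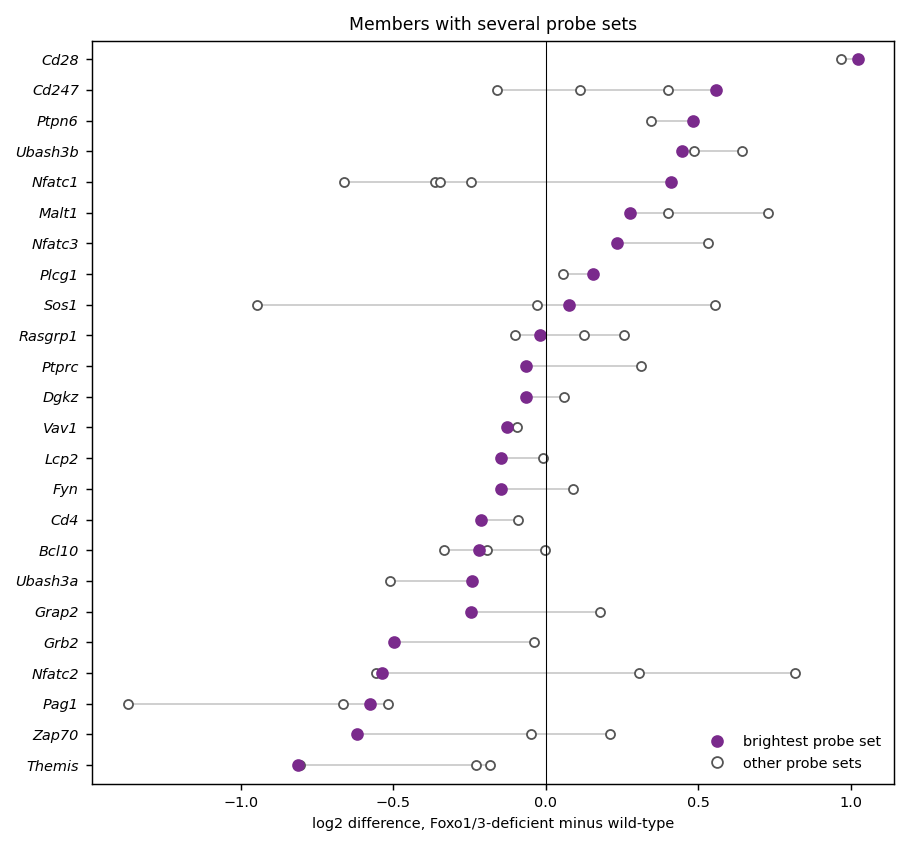
Log2 difference (Foxo1/3-deficient minus wild-type) on each probe set past the filter for the 24 members with several; filled points are the brightest probe set, from which the gene was read, and open points the others. Probe sets of Cd28, Ubash3b and Pag1 lie on 1 side of 0, and those of Nfatc1, Nfatc2, Zap70 and Sos1 lie on both.

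Over the 24 members with more than 1 probe set, 44 further probe sets passed the filter, and 16 of them had the opposite sign to the one read. Sos1 had the widest range, log2 -0.95 to 0.55, and the lowest of its values came from signals of 13.4 and 73.0 on the labelled-deficient arrays, against 175 and 36.0 on the wild-type arrays. The sequences and binding sites of the probes were not analysed here.

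Counting over all members, 19 of 38 had groups that did not overlap (8 higher and 11 lower), against 41% of all genes (20% higher and 21.1% lower). The median log2 difference of the members was -0.073, against -0.0028 for all genes, and the median size regardless of sign was 0.26, against 0.24. Within both pairs 28 members kept one direction (73.7%), against 62.6% of all genes.

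Several members differed more between the pairs than between the genotypes. With genotype as a covariate, 1 member was higher and 5 were lower in pair 2 than in pair 1 (15.8%, limma adjusted p under 0.05), against 7.11% of all genes. Cd4 read 1456 and 1994 in pair 2, against 3081 and 3028 in pair 1 (log2 -0.84, adjusted p = 0.00486). Cd3e read 1858 and 2214 in pair 2, against 3371 and 3759 in pair 1 (-0.81, 0.00407). The direction was not shared by the complex, since Cd3g read 10579 and 12552 in pair 2, against 7767 and 8188 in pair 1 (0.53, 0.0522).

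Ubash3a (log2 -0.67), Cd247 (-0.59) and Lcp2 (-0.54) were also lower in pair 2, and Nfatc1 was higher (0.74, adjusted p = 0.00814). Of the 6, Cd247 was the one that was also called between genotypes with the block. What the pair number stands for is not stated beyond the titles.

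**Figure D4:**
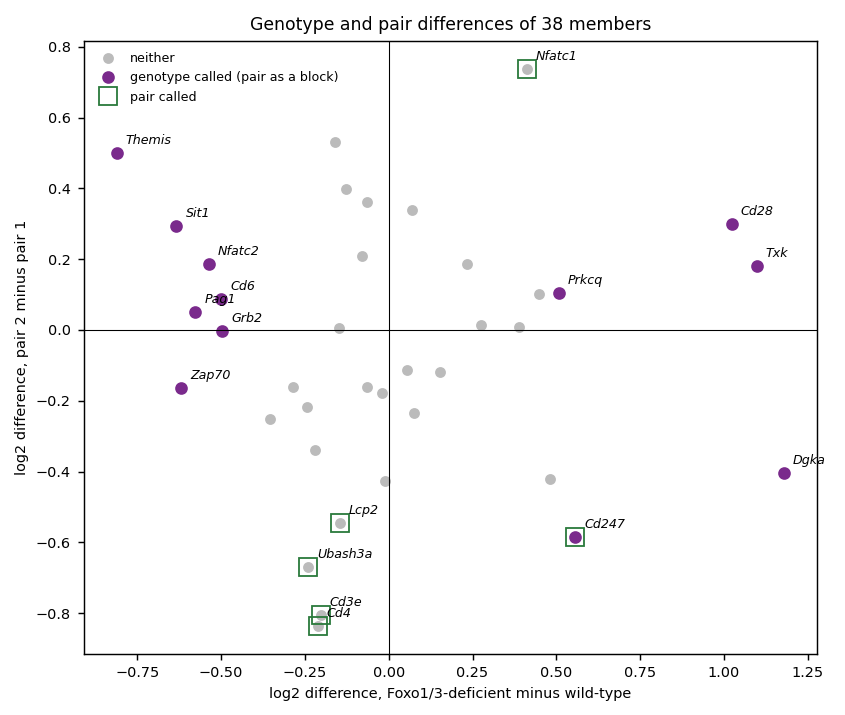
Log2 difference of Foxo1/3-deficient minus wild-type (horizontal) against log2 difference of pair 2 minus pair 1 (vertical) for the 38 members; purple points are called between genotypes with the pair as a block, and green squares between pairs. Cd4 and Cd3e sit at the bottom, at -0.21 and -0.20 on the horizontal axis, and Dgka, Txk and Cd28 lie far to the right.

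Further along the pathway, 89 of 107 listed genes that are no members were tested in the same fit, and 4 rose while 0 fell by limma, where 1.23% and 1.37% of all genes did. At an unadjusted p under 0.05 there were 9 higher and 7 lower of 89, against 5.98% and 7.04% of all genes. With the block 7 rose and 7 fell, against 5.44% and 6.5% of all genes, so the counts of lower genes were near the background. The lists were chosen with earlier results of these data known, so no share of a list, here or below, is a test of it. Trat1 encodes TRIM, a transmembrane adaptor that associates with the receptor and its zeta chain. It read 2539 and 1912 on the labelled-deficient arrays, against 211 and 445 on the wild-type arrays, which is 6.85-fold higher (log2 2.78 ± 0.36; limma adjusted p = 0.0118). Its second probe set read 1512 and 831 against 101 and 180. The difference in Trat1 was larger than that of any of the 38 members.

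Evl, an Ena/VASP protein of the actin network at the synapse, read 7462 and 5049 on the labelled-deficient arrays, against 2070 and 1479 on the wild-type arrays (3.48-fold, adjusted p = 0.0199). In the PI3K branch, Pik3ip1, an inhibitor of PI3K, rose 4.21-fold (adjusted p = 0.0106), and Pik3cd, the catalytic subunit p110 delta, read 2039 and 2445 against 867 and 746 (2.74-fold, 0.0238). Pik3cd missed the threshold without labelled-deficient replicate 1 or 2 (adjusted p = 0.0602 and 0.114) and Evl without labelled-deficient replicate 1 (0.0577). Both also missed it with all probe sets kept (Pik3cd 0.0550, Evl 0.0585) and with no intensity trend (0.0712 and 0.0756), and Pik3cd missed it on its first-listed probe set (0.109) and on the mean of its probe sets (0.0815). Of 11 tested genes in the PI3K branch these 2 rose, where 1.23% of all genes did. With the block Pik3r5 rose and Inpp5d, the inositol phosphatase SHIP-1, fell as well, where 5.44% and 6.5% of all genes did. Pik3r5 read 2151 and 1574 against 768 and 317 (3.63-fold, limma adjusted p = 0.0630 without the block).

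The NF-kB branch had a median log2 difference of -0.24 over 15 tested genes, of which 0 passed by limma (1 higher and 4 lower at an unadjusted p under 0.05, against 5.98% and 7.04% of all genes). With the block Nfkb2, Nfkbie, Relb and Tnfaip3 fell, where 6.5% of all genes did, and Ikbkb rose, where 5.44% did. Nfkbie, an inhibitor of NF-kB, read 2172 and 1687 on the labelled-deficient arrays, against 4168 and 2925 on the wild-type arrays. Tnfaip3, the ubiquitin-editing brake A20, read 3087 and 2765 against 4257 and 4715. In the calcium and calcineurin group 0 of 15 passed either fit, where 2.6% of all genes passed without the block and 11.9% with it. At an unadjusted p under 0.05 there was 1 higher, against 5.98% of all genes, and the median was 0.019.

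Among the Ras and MAP kinase genes, 0 of 11 passed by limma (1 higher and 1 lower at an unadjusted p under 0.05, against 5.98% and 7.04% of all genes). With the block, the scaffold gene Ksr1 fell, at 375 and 403 on the labelled-deficient arrays against 793 and 888 on the wild-type arrays. Rasa1, a Ras GTPase-activating protein, rose. In that fit 6.5% of all genes fell and 5.44% rose. Nck2, an adaptor that links the receptor to actin, also fell with the block, at 1525 and 1280 against 2478 and 2257.

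**Figure D5:**
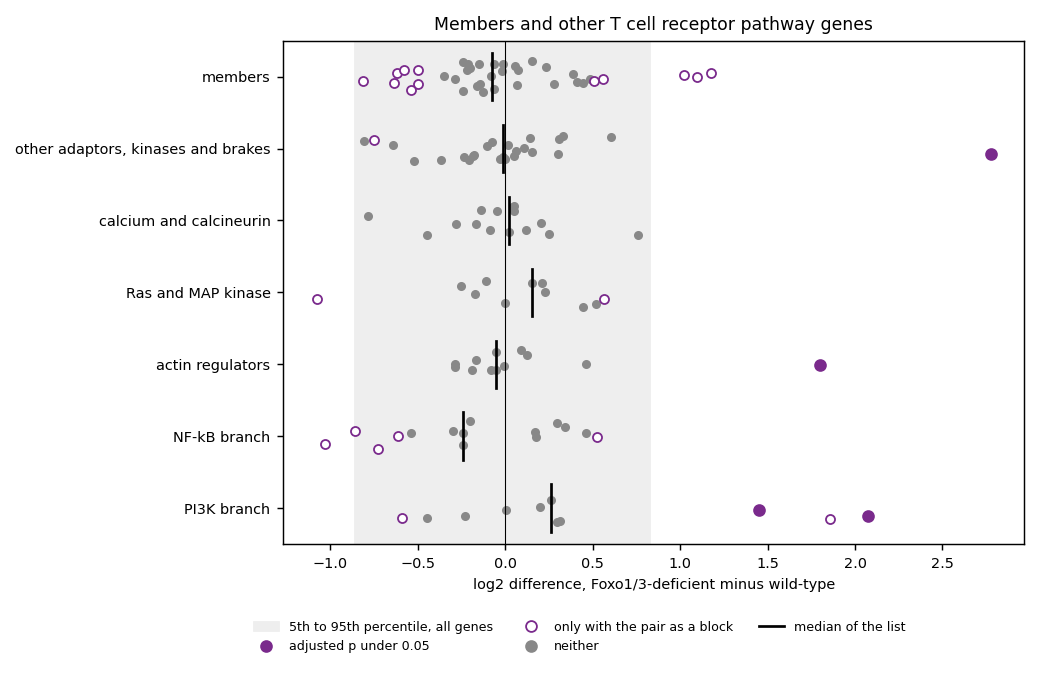
Log2 difference (Foxo1/3-deficient minus wild-type) of each tested gene among the 38 members and 6 lists of other pathway genes; filled purple points passed an adjusted p of 0.05, open purple points passed only with the pair as a block, a black bar is the median and grey shading spans the 5th to 95th percentile of all genes. Trat1, Evl, Pik3ip1 and Pik3cd are the filled points, and Dgka, Txk and Cd28 are the members right of the shading.

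Some markers of other cells also differed between the arrays. The summed signal of 7 macrophage and monocyte markers was 10196 and 7635 on the labelled-deficient arrays, against 7309 and 4836 on the wild-type arrays. With the block 2 of 6 tested rose, Adgre1 and Csf1r, where 5.44% of all genes did. Of the 6 tested, 5 were higher on the labelled-deficient array of both pairs, and Lyz2 was not, at 772 and 613 against 942 and 611. Itgam did not pass the filter and read 27.3 and 1.78, against 29.9 and 36.1. Csf1r made up most of the sum, at 6676 and 5165 against 4749 and 2987. Higher signals on the labelled-deficient array of both pairs were seen for 11 of 38 members, against 3743 of 12115 genes. Among the 11 were the 5 that rose with the block (Dgka, Txk, Cd28, Cd247 and Prkcq). The macrophage sum was also lower in pair 2 than in pair 1 on the arrays of either label. Of these 5 members, Cd247 was called lower in pair 2 (log2 -0.59, limma adjusted p = 0.0269). Dgka, Cd28, Txk and Prkcq were not called between the pairs (log2 -0.40, 0.30, 0.18 and 0.10, adjusted p between 0.193 and 0.772). The sum of 7 B cell markers was 3387 and 2365, against 3392 and 1569, and with the block Ms4a1 rose and Cd22 fell. The sum of 5 natural killer cell markers was 1364 and 1593, against 1804 and 568, that of 5 neutrophil markers 282 and 107, against 852 and 195, and that of 5 dendritic cell markers 927 and 708, against 899 and 704. With the block 1 neutrophil marker, Mpo, fell, where 6.5% of all genes did. The 2 erythroid markers measured summed to 187 and 129, against 39.6 and 158. The part of any of these cells in the differences above was not tested.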

How the data were processed

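The authors deposited a linear intensity for every probe set. The submitters' processing notes name MAS5, and the sources used here give neither its version nor its settings. All 4 arrays had the same 2% trimmed mean (500.003), so no scaling was added. Genes were named from the 34945 probe sets to which the platform annotation pairs a single symbol; 932 with more than 1 symbol and 9160 without any stayed unnamed. Tests used log2(signal + 17), with 17 the rounded 25th percentile of the deposited values. Fold changes of the fit, and counts of genes past a fold within both pairs, are on that scale and understate changes of dim genes. Ratios and folds printed for a single pair are of the deposited signals, with nothing added. Probe sets below the 40th percentile of mean log2 value (near a signal of 40.5) were dropped, and each gene was read from its brightest probe set, leaving 12115 genes. Groups were tested two-sided in R 4.3.3 by limma 3.58.1, using lmFit and eBayes with an intensity trend and Benjamini-Hochberg adjustment, after the script was checked on simulated data. Precision is limited by having 4 arrays, and p-values measure only the spread between these arrays, which may be technical.

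The titles number the pairs, which is where the pairing comes from, and same-numbered arrays deviated together from their groups (Pearson r 0.368 across 12115 genes, which are not independent replicates). The blocked fit was an alternative, printed where it changed a call and for some genes whose call it left unchanged. The members and lists were chosen with earlier results of these data known. Every array was read out for members called with or without the block, for members 1.5-fold apart in one direction in both pairs, and for others where it showed the contrast. Pathway genes named are those that passed. Those called only with the block, and the probe sets other than those of opposite sign or over 1 away, were named after their values were seen. Alternatives changed the pseudocount, filter, scaling, variance model, probe set, block and arrays. Promoters came from RefSeq (GRCm38.p6).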

Additional observations from a re-analysis of the deposited data

How the results depend on the processing

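The results rest on 4 arrays. The count of members past the threshold was 0 higher and 0 lower in most settings. It became 1 higher after quantile normalization (Cd28), 2 higher on the mean of all probe sets (Cd28 and Txk), and 5 higher and 7 lower with the replicate block. Leaving out 1 array gave 0 to 1 higher and 0 lower (Cd28 without labelled-deficient replicate 1, Dgka without wild-type replicate 1); the lone array is then assumed to vary like the other group. Over all genes the main counts were 149 higher and 166 lower. They were 46 and 45 without the filter, 58 and 55 without the intensity trend, and 659 and 787 with the replicate block, and ran from 70 to 271 higher and from 82 to 262 lower when 1 array was left out. Other pathway genes past the threshold were 4 higher and 0 lower. There were 2 higher without the filter and without the intensity trend, 7 higher and 7 lower with the replicate block, and 2 to 5 higher and 0 lower without 1 array. Members at least 2-fold apart within both pairs stayed at 1 higher and 0 lower without the pseudocount, with the median as pseudocount, after quantile normalization and on the mean of all probe sets.

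Of 675 recomputed log2 differences of 45 named genes, 42 changed sign, in 19 genes, none of which passed without the block (Nfatc2 passed with it); the cause was not tested. On the first-listed probe set the difference became 0.091 for Fyn, -0.95 for Sos1, 0.13 for Rasgrp1, 0.060 for Dgkz, -0.36 for Nfatc1 and 0.82 for Nfatc2. On the mean of all probe sets it became -0.087 for Sos1, 0.066 for Rasgrp1, 0.12 for Ptprc, -0.24 for Nfatc1 and 0.0072 for Nfatc2. Quantile normalization gave 0.059 for Cd3d, 0.048 for Rasgrp1, 0.026 for Ptprc and 0.023 for Foxp3. Leaving out 1 array gave ranges of -0.26 to 0.24 for Cd3d, -0.63 to 0.22 for Cd3e, -0.47 to 0.15 for Cd3g, -0.75 to 0.32 for Cd4, -0.23 to 0.066 for Cd2, -0.040 to 0.15 for Cd5, -0.49 to 0.20 for Lcp2 and -0.37 to 0.11 for Vav1. The ranges were -0.064 to 0.21 for Sos1, -0.11 to 0.071 for Rasgrp1, -0.27 to 0.14 for Ptprc, -0.24 to 0.38 for Csk, -0.64 to 0.16 for Ubash3a, -0.34 to 0.21 for Dgkz, -0.054 to 0.88 for Nfatc1, -0.48 to 0.047 for Bcl10 and -0.082 to 0.021 for Foxp3.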
